A study of Homo sapiens with 15 samples.

Results

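SMC3 binding was compared between TF-1 cells, a human erythroleukemia line, that expressed RAD21 Q592* and TF-1 cells that expressed wild-type (WT) RAD21. Q592* is a form of RAD21 with a premature stop codon. The members are the peaks on chromosomes 1 to 22 of the pooled Q592* SMC3 list and the pooled WT SMC3 list, joined wherever they overlapped by at least 1 bp. The 2 lists held 73093 autosomal peaks, which formed 43881 regions, out of 198298 peaks in all 6 pooled lists of the series (SMC3, GATA2 and RUNX1 in both lines). They stand for 4 of the 15 libraries, 2 labelled Q592* SMC3 and 2 labelled WT SMC3. In both groups the RAD21 form came from an inducible vector, and the cells were given doxycycline for 6 days. Fixation was 10 min in 1% formaldehyde, shearing was to an average of 200 to 400 bp, and the same SMC3 antibody served both groups. The labels do not say whether either line is a single clone, and they name no removal of the cell's own RAD21 gene in either.

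Cohesin is a ring of SMC1A, SMC3, RAD21 and a STAG subunit. RAD21 is the part that closes the ring between the SMC heads, and SMC3 is part of every complete ring, so an SMC3 ChIP marks places where cohesin sits on chromatin. Cohesin extrudes loops of chromatin and is often held at sites of CTCF, which become loop anchors. It is also found, usually at a lower level, at enhancers and promoters bound by transcription factors such as GATA2 and RUNX1, both regulators of blood progenitors. Cohesin subunit genes including RAD21 are mutated in myeloid leukemia. The peak lists hold no expression, so neither the cell type nor the level of either RAD21 form could be checked in them.

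Each group is 1 pooled list, with no value per library, so no spread between libraries exists and no test between the lines was possible. Differences below are differences between 2 lists. Intervals in brackets are 95% intervals over peaks or regions (Wilson for shares, order statistics for medians) and cover counting error only, and neighbouring sites are not independent. ChIP totals recovered from the peak values were 93.5 M reads (M standing for mega) in Q592* and 103.5 M in WT. Background totals were 72.6 M in Q592* and 86.7 M in WT. The strength of a peak is given as the authors' −log10 q, a measure of how far the ChIP signal at the summit stood above background, and was used to rank peaks within their own list.

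Fewer cohesin sites were called in the mutant cells, and the sites found in both were by far the larger set. The Q592* list held 31878 autosomal peaks and the WT list 41215. Of the 43881 regions, 28771 were kept, meaning called in both lines (65.6%, 65.1 to 66.0%). A further 2986 were called in Q592* alone (6.80%, 6.57 to 7.04%), and 12124 in WT alone (27.6%, 27.2 to 28.05%). Counted by list, 9.37% of the Q592* peaks had no WT partner (9.05 to 9.69%), and 29.4% of the WT peaks had no Q592* partner (29.0 to 29.9%). At equal list lengths, which nearly force equal remainders, there were 4953 Q592*-only and 4899 WT-only regions. Then 15.5% of the Q592* and 15.4% of the WT peaks had no partner. With a −log10 q of at least 10 in both lists, 1864 Q592*-only and 4955 WT-only regions were left. There 7.72% of the Q592* and 18.1% of the WT peaks had no partner, so a smaller difference remained. Sites without a partner are called Q592*-only (gained) and WT-only (lost) here, as a description of the lists and not of a tested change. The SMC3 peaks covered 11.6 Mb in Q592* and 12.8 Mb in WT. Over the kept regions the order was the reverse, with 11.01 Mb in Q592* and 10.3 Mb in WT.

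Kept sites corresponded almost 1 to 1. In 28353 of the 28771 kept regions (98.5%), 1 Q592* peak met 1 WT peak. In 302 regions, 1 Q592* peak spanned 2 or more WT peaks, and in 103 regions 1 WT peak spanned 2 or more Q592* peaks. Another 13 regions held 2 or more peaks of both lists. Strength at the 1-to-1 regions ran in parallel, with a Spearman correlation of 0.882 between the −log10 q values of both lists over the 28353 regions. The strongest quartiles of both lists shared 7101 of these regions. That is 90.7% of the Q592* members and 70.1% of the WT members of the strongest quartile. The quartile held 7828 of these regions in Q592* and 10125 in WT, so the WT share had to be the lower one.

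Sites called in 1 line alone came from the weak end of either list. The Q592*-only peaks had a median −log10 q of 6.399 (interquartile range 4.64 to 9.28) and the WT-only peaks 6.24 (4.55 to 8.98). The kept peaks had medians of 29.5 in Q592* and 33.9 in WT. The median fold enrichment over local background was 3.56 for Q592*-only and 3.68 for WT-only peaks, against 6.32 and 6.67 for the kept peaks of Q592* and WT. In reads recovered at the summit, the Q592*-only peaks had a median of 37 and the WT-only peaks 33, whereas kept peaks had 85.5 in Q592* and 89 in WT.

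Above a certain strength every site was found in both lines. With each list ranked by strength and divided into 10 equal classes, 61.4% of the Q592* peaks and 16.9% of the WT peaks of the weakest class had a partner. In class 5 the shares were 97.5% for Q592* and 76.5% for WT. The weakest class of the Q592* list ran from a −log10 q of 2.00 to 5.79, and that of the WT list from 2.01 to 4.66. The strongest Q592*-only peak had a −log10 q of 37.3, and all 12102 stronger Q592* peaks had a WT partner. The strongest WT-only peak had 48.9, and all 10825 stronger WT peaks had a Q592* partner.

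**Figure D1:**
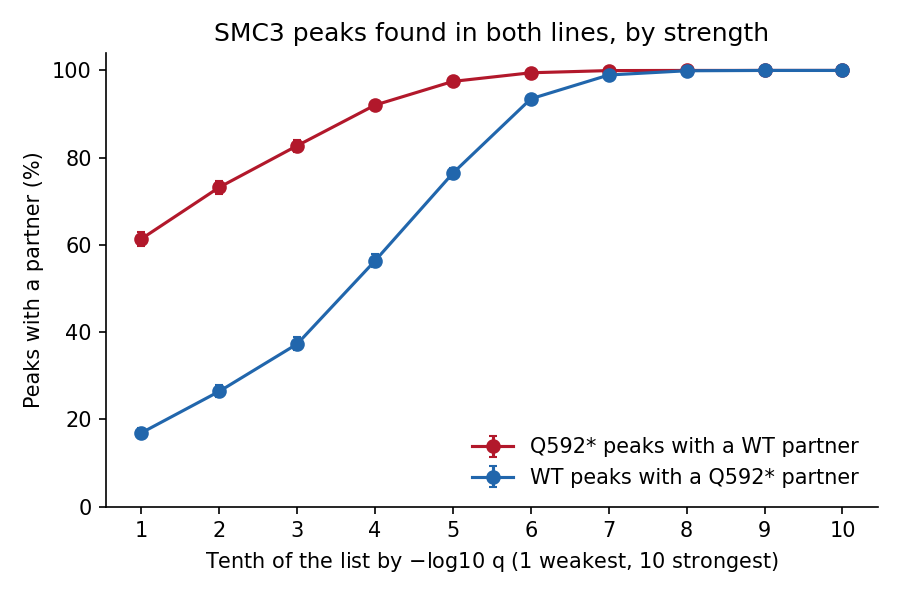
Share of SMC3 peaks with a partner in the other line (%), by class of the list ranked by −log10 q (10 equal classes, 1 weakest), for Q592* peaks (partner in WT) and WT peaks (partner in Q592*), with 95% Wilson intervals. Both curves reach 100% in the strongest classes, and the WT curve starts at 16.9% against 61.4% for Q592*.

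The read totals were smaller in Q592*, at 0.903 times WT for ChIP and 0.837 times for background. The WT pileup and background were then both multiplied by the ratio of the background totals, 0.837. After that, 40680 of the 41215 WT peaks still passed the lowest −log10 p of the Q592* list. Among the WT-only peaks, 11698 of 12124 (96.5%) did so. The rescaling uses pooled totals only, with the same ratio for every peak. No reads were drawn anew, so it adds no counting error and cannot show which peaks would be called at lower depth. The genome-wide background value was 4.06 in Q592* and 4.047 in WT. The background totals thus differed mainly through the fragment lengths assumed, 151 bp in Q592* and 126 bp in WT. Differences in how well the ChIP worked cannot be told apart from differences between the lines.

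The strongest 1-to-1 kept region, ranked by the lower of its −log10 q values in both lists, lay on chromosome 17 (hg19), from 32526857 to 32527553 in Q592* and from 32526893 to 32527618 in WT. It had 315 reads at the summit and a fold of 40.6 in Q592*, and 355 reads and a fold of 26.05 in WT, and the summits were at 32527141 in Q592* and 32527130 in WT. The next also lay on chromosome 17, from 32688260 to 32688968 in Q592* and from 32688357 to 32688878 in WT, with 335 reads in Q592* and 356 in WT. The others in this set were on chromosome 13 (49343028 to 49343717 in Q592*, with 373 reads there and 362 in WT), chromosome 2 (103232202 to 103232831, with 323 reads in Q592* and 326 in WT) and chromosome 3 (170131688 to 170132561, with 453 reads in Q592* and 380 in WT). Apart from a Q592* GATA2 peak at the region on chromosome 2, no GATA2 or RUNX1 peak overlapped these 5. An hg19 annotation was not used here, and regions are named by position alone.

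Beyond the strongest Q592*-only regions on chromosomes 2 (27308409 to 27308670, 122 reads at the summit) and 22 (39795587 to 39795782, 115 reads), the set held regions on chromosome 10 from 30024770 to 30025062 (75 reads, fold 8.24), chromosome 14 from 77606015 to 77606242 (90 reads, fold 6.45) and chromosome 6 from 43473487 to 43473706 (82 reads, fold 6.63). The strongest WT-only region, on chromosome 11 from 108288311 to 108288604, stood on a low local background (1.04 times the genome-wide value) with 77 reads. Next came regions of chromosome 3 from 42613861 to 42614130 (107 reads) and from 99809242 to 99809540 (94 reads), chromosome 6 from 107435478 to 107435746 (121 reads) and chromosome 19 from 31157287 to 31157526 (102 reads). None of these 10 line-only regions overlapped a GATA2 or RUNX1 peak of either line. Their widths were 196 to 293 bp in Q592* and 240 to 299 bp in WT.

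Peaks were wider in the mutant cells. The median width was 333 bp in Q592* (interquartile range 238 to 456) and 269 bp in WT (188 to 389). Peaks over 500 bp made up 18.7% of the Q592* list and 12.5% of the WT list, whereas those over 1000 bp were 0.471% and 0.459%. The widest had 2856 bp in Q592* and 2386 bp in WT. The narrowest possible peak differed too: it was 151 bp in Q592* and 126 bp in WT, a difference of 25 bp. This narrowest width was taken as the fragment length that the peak caller used for each pool. Width followed strength in both lists. From the weakest to the strongest quartile, the median width was 209, 273, 371 and 501 bp in Q592* and 177, 214, 289 and 434 bp in WT. Line-only peaks were narrow, with medians of 194 bp in Q592* and 180 bp in WT.

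At the same sites the excess width was about as large as this 25 bp. Over the 28353 1-to-1 regions the median width was 349 bp in Q592* and 318 bp in WT. The median of the difference was 30 bp (28 to 31), with an interquartile range of -33 to 87 bp. With the narrowest width of each list taken off, it was 5 bp (3 to 6). The Q592* peak was the wider one in 63.1% of regions, and in 52.1% after that step. The added width was symmetrical, since the left edge of the Q592* peak lay 16 bp further left (median of -16 bp) and the right edge 15 bp further right. The WT peak lay wholly inside the Q592* peak in 41.2% of regions, and the Q592* peak inside the WT peak in 17.2%.

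Kept cohesin sites at GATA2 peaks went the other way. At the 4427 regions that overlapped a WT GATA2 peak, the median width was 327 bp in Q592* and 362 bp in WT, and the median difference was -19 bp (-24 to -15). At the 23926 regions that did not, it was 352 bp in Q592* and 311 bp in WT, and the median difference was 36 bp (35 to 37). The Q592* peak was narrower in 56.2% of the regions at GATA2, and over 100 bp narrower in 28.0%. Away from GATA2 it was over 100 bp narrower in 7.90%. At the 2228 regions at WT RUNX1 peaks the median difference was -36.5 bp. For both factors the overlap was judged on the WT SMC3 peak. A wider WT SMC3 peak met that rule more easily, and the part this had in the differences was not tested.

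The size of this contrast depended on how sites were grouped. By quartile of WT strength, weakest first, the median differences were 5, -38, -34 and 1 bp at GATA2 and 40, 37, 34 and 35 bp elsewhere. By quartile of Q592* strength they were -34, -14.5, 4 and 12.5 bp at GATA2 and 9, 31, 42 and 48 bp elsewhere. The overlap was also judged on the GATA2 and SMC3 peaks of Q592* in place of those of WT. The median difference at GATA2 was then -1 bp (-5 to 3), against 35 bp elsewhere. The difference was thus lower at GATA2 sites than elsewhere in each of these groupings, while its value at GATA2 was below 0 in some and above 0 in others. Within each list, SMC3 peaks at GATA2 were wider than others of the same quartile of strength. A wider SMC3 peak also met the overlap rule more easily, and the part this had here was not tested. In the strongest quartile the peaks at GATA2 had a median of 603 bp against 489 bp elsewhere in Q592*, and 575 bp against 424 bp elsewhere in WT. This split was chosen after the values had been seen.

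**Figure D2:**
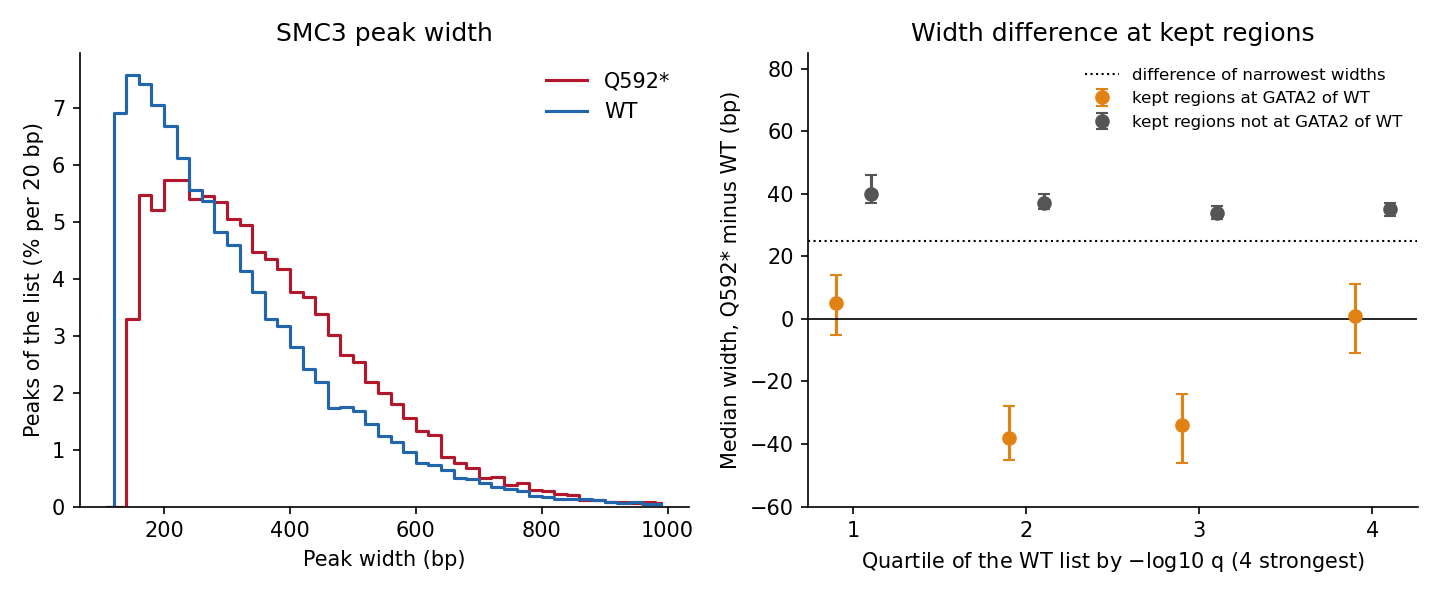
Left, distribution of SMC3 peak width (bp) in the Q592* and WT lists, as % of the list per 20 bp. Right, median width difference (Q592* minus WT, bp, with 95% intervals over regions) at 1-to-1 kept regions by quartile of WT strength, at and not at WT GATA2 peaks; points away from GATA2 lie at 34 to 40 bp, above the dotted line at 25 bp, and points at GATA2 lie at -38 to 5 bp.

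Among the 1-to-1 kept regions, the 5 with the widest peak in either line included 4 that overlapped GATA2 in both lines. Wider kept peaks, of up to 2856 bp in Q592* and 2386 bp in WT, lay in regions that held several peaks of a list. On chromosome 13 the peak ran from 91786164 to 91787522 in Q592* (1359 bp) and from 91785908 to 91787526 in WT (1619 bp). On chromosome 3 it ran from 128197410 to 128198173 in Q592* (764 bp, 68 reads at the summit) and from 128196687 to 128198295 in WT (1609 bp, 89 reads), with summits at 128198018 in Q592* and 128197778 in WT. On chromosome 5, with no GATA2 or RUNX1 peak, the widths were 1124 bp in Q592* (78428686 to 78429809) and 1573 bp in WT (78428427 to 78429999). On chromosome 6 the order was the opposite, with 1558 bp in Q592* (141882911 to 141884468) and 1203 bp in WT (141883155 to 141884357). The last, on chromosome 15, had 1419 bp in Q592* (52068191 to 52069609) and 1551 bp in WT (52068199 to 52069749).

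Cohesin summits of both lines lay close together at kept sites. The median distance between the Q592* and the WT summit was 16 bp (interquartile range 7 to 31). It was at most 25 bp in 67.7% of the 28353 regions, at most 50 bp in 88.8% and at most 100 bp in 96.5%. No direction prevailed: the median of the signed shift was 0 bp, with the Q592* summit at the higher coordinate in 48.8% of regions and at the lower in 49.4%. The largest distance was 695 bp. Distances were short where the signal was strong. By quartile of WT strength, weakest first, the median was 39, 25, 16 and 12 bp.

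Summits lay further apart at GATA2 sites. The median distance was 33 bp (32 to 34) at WT GATA2 peaks and 15 bp elsewhere, and 42 bp at WT RUNX1 peaks. GATA2 sites were weaker on the whole, with 776 of 4427 in the strongest WT quartile, against 9349 of the 23926 others. The contrast was there within the weaker quartiles too: by quartile of WT strength the median distance was 60, 46, 23 and 13 bp at GATA2 and 28.5, 20, 16 and 12 bp elsewhere. Summits were over 100 bp apart in 16.7% of the regions at GATA2 and in 1.10% of the others. Of the 1002 regions with such a distance, 739 (73.8%) were at WT GATA2 peaks, against 13.5% of the remaining regions. Their median WT −log10 q was 8.98, compared with 36.0 for the remaining regions.

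SMC3 summits of both lines lay at the same median distance from the GATA2 summit. At the 4242 regions with a GATA2 peak in both lines, the median distance from the SMC3 summit to the WT GATA2 summit was 58 bp in Q592* and 58 bp in WT. The Q592* SMC3 summit was the farther one in 47.8% of these regions and the nearer one in 50.6%. Among the 1596 with SMC3 summits over 50 bp apart, the medians were 68 bp in Q592* and 71 bp in WT.

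**Figure D3:**
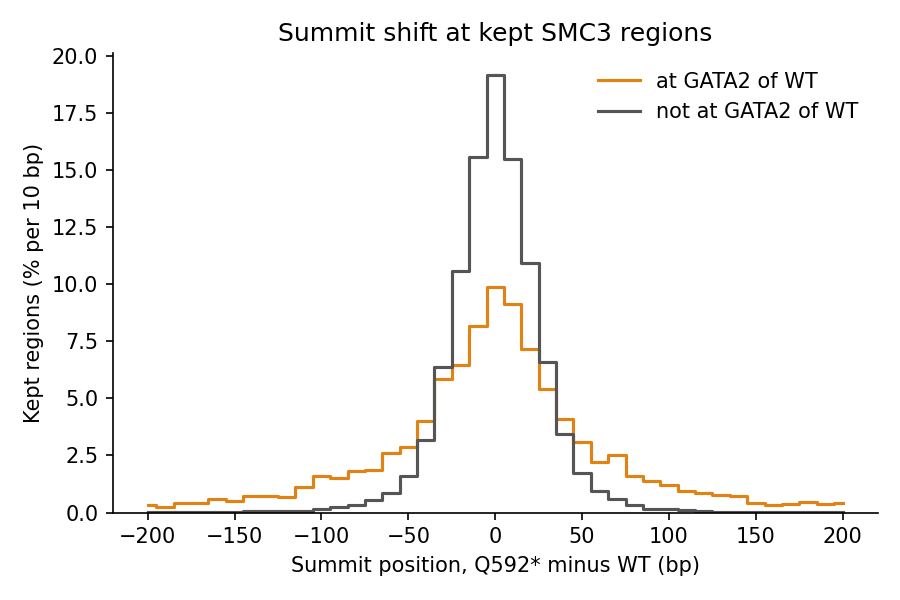
Signed summit shift (Q592* minus WT, bp) at 1-to-1 kept SMC3 regions within 200 bp, as % of regions per 10 bp, at and not at WT GATA2 peaks. Both distributions centre on 0, and the one at GATA2 is broader, with a median distance of 33 bp against 15 bp.

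GATA2 and RUNX1 peaks of the same cells were also wider in the mutant line at sites with 1 peak of each list. The median difference was 75 bp for GATA2 and 55 bp for RUNX1, where the narrowest peaks were 157 bp in Q592* and 150 bp in WT for GATA2, and 143 bp and 139 bp for RUNX1. Their summits lay a median of 20 and 19 bp apart. The Q592* RUNX1 list stands for 1 library by the labels. The SMC3 values were 30 bp in width and 16 bp in distance.

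Neighbouring cohesin sites were farther apart in the mutant list. The median distance from 1 SMC3 summit to the next on the same chromosome was 40.1 kb in Q592* (39.4 to 40.9, interquartile range 12.8 to 95.03 kb) and 28.1 kb in WT (27.6 to 28.7, interquartile range 8.17 to 70.9 kb). Neighbours within 1 kb made up 2.86% of the Q592* pairs and 5.60% of the WT pairs. Gaps over 100 kb made up 23.7% in Q592* and 17.0% in WT, and gaps over 500 kb 2.20% and 1.57%. In number there were 7553 gaps over 100 kb in Q592* and 6988 in WT.

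At equal list length the spacing was nearly equal, which is close to forced. The number of peaks on the same chromosomes largely sets the distance between them. With the weakest WT peaks dropped until both lists had the same length, the medians were 40.1 kb in Q592* and 39.7 kb in WT. Between kept sites alone they were 45.1 kb in Q592* and 44.5 kb in WT. Kept sites are the same regions in both lists, so these medians also had to lie close together. Of the 28870 pairs of neighbouring kept peaks in Q592*, 9.08% had a Q592*-only peak between them. Of the 29069 such pairs in WT, 25.3% (24.8 to 25.8%) had a WT-only peak between them.

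**Figure D4:**
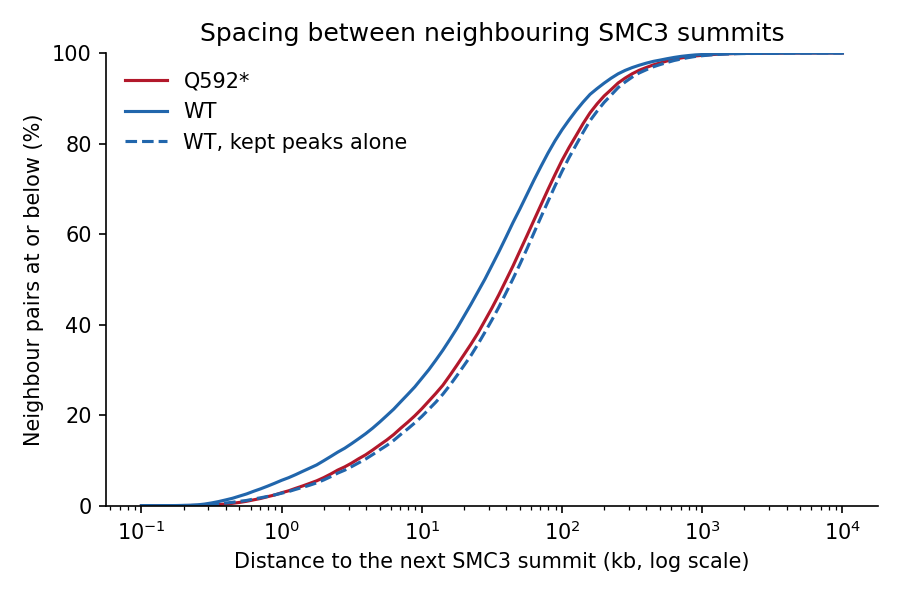
Cumulative share of neighbouring SMC3 summit pairs (%) at or below a given distance (kb, log scale), for all Q592* peaks, all WT peaks and the kept WT peaks alone. At the median the Q592* curve (40.1 kb) lies to the right of the WT curve (28.1 kb) and to the left of the kept WT peaks (44.5 kb).

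Crowded WT sites lacked a partner more often than isolated ones. WT peaks with their nearest WT neighbour within 1 kb had no Q592* partner in 44.1% of cases, those at 1 to 5 kb in 30.6%, those at 10 to 25 kb in 28.7%, those at 50 to 100 kb in 22.9% and those over 100 kb away in 19.5%. The crowded peaks were weak, with a median −log10 q of 8.98 within 1 kb. With the 4 quartiles of WT strength weighted equally, the range was narrower: the shares in the same 5 classes were 30.6, 30.0, 30.3, 27.2 and 24.7%. Among Q592* peaks, those with a neighbour within 1 kb had no WT partner in 18.2% of cases, and the other classes lay between 8.21 and 9.82%. These crowded Q592* peaks were weak too, with a median −log10 q of 12.3. With quartiles of Q592* strength weighted equally the share was 11.5% within 1 kb and 8.77 to 10.2% in the other classes.

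Most line-only sites had no summit of the other line close by. The nearest WT summit was a median of 9.88 kb from a Q592*-only summit, and lay within 1 kb for 13.7% of them. The nearest Q592* summit was a median of 15.0 kb from a WT-only summit, and lay within 1 kb for 9.06%. Kept sites of the same line were at similar distances from both classes, at medians of 15.9 kb for Q592*-only and 16.9 kb for WT-only peaks.

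WT-only peaks, 29.4% of their list, stood next to one another more often than Q592*-only peaks, 9.37% of theirs. Of the Q592*-only peaks, 77.8% had a kept peak, or the end of the chromosome's list, on either side, and of the WT-only peaks 39.0%. Runs of at least 5 consecutive line-only peaks held 0.670% of the Q592*-only and 12.7% of the WT-only peaks. The longest run was 5 peaks in Q592* and 24 in WT. WT-only peaks were also more numerous (12124, against 2986 Q592*-only), which by itself makes line-only neighbours and longer runs more likely. The part this had in these shares and runs was not tested. The longest WT run, with 24 peaks on chromosome 10 from 38815947 to 42600078, spanned 3784 kb. There 22 of its 24 peaks overlapped WT GATA2 peaks and the local background reached 44.7 times the genome-wide value. A run of 12 peaks on chromosome 16 from 46388322 to 46401423 had all 12 at GATA2 and a background of up to 59.3 times, so calls in these 2 places stood on very high background in the same pool. The remaining 3 of the 5 longest runs had a local background of at most 4.94 times, while the next in length, 11 peaks on chromosome 4 from 49121533 to 49659706, reached 12.1 times with 10 of its peaks at GATA2. The 3 were 16 peaks over 153 kb on chromosome 13 (89358956 to 89512393), 13 peaks over 112 kb on chromosome 2 (37781315 to 37893408) and 12 peaks over 140 kb on chromosome 1 (66736935 to 66877364), with 8, 8 and 4 of them at GATA2.

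The share of sites without a partner varied between chromosomes along with peak strength. The WT-only share was highest on chromosomes 13 (40.5%), 6 (36.6%) and 3 (33.6%) and lowest on chromosomes 19 (15.0%), 17 (18.5%) and 22 (19.97%). The median WT −log10 q was 11.0 on chromosome 13 and 35.2 on chromosome 19. With quartiles of strength weighted equally, all 22 chromosomes lay between 26.0 and 31.4%. Chromosome 13 was then at 30.9% and chromosome 19 at 28.0%. Among chromosomes 13, 6 and 19, spacing differed most between the lines on chromosome 13 and least on chromosome 19. The medians were 51.3 kb in Q592* and 28.7 kb in WT on chromosome 13, 36.2 kb in Q592* and 22.3 kb in WT on chromosome 6, and 24.7 kb in Q592* and 22.6 kb in WT on chromosome 19.

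**Figure D5:**
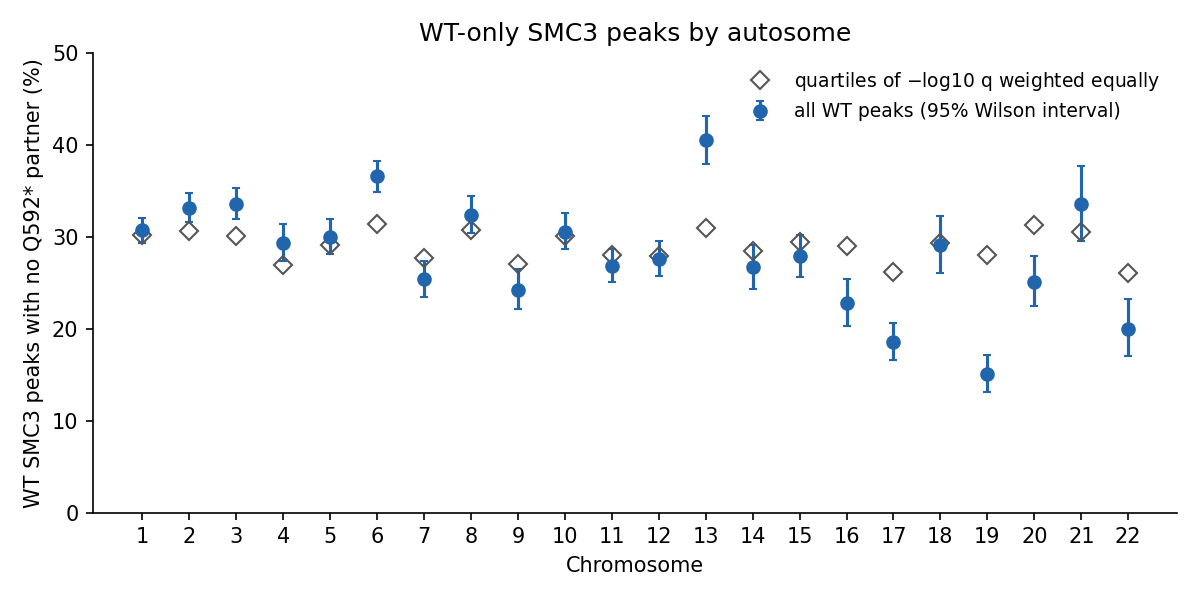
Share of WT SMC3 peaks with no Q592* partner (%) on each autosome. Filled points are all WT peaks with 95% Wilson intervals and run from 15.0% (19) to 40.5% (13); open diamonds weight the quartiles of WT strength equally and run from 26.0 to 31.4%.

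Among 388 windows of 5 Mb with at least 50 WT peaks, the median WT-only share was 27.9% (interquartile range 22.3 to 36.1%). It was highest on chromosome 13 between 85 and 90 Mb, at 67.9% (106 of 156 peaks), 90 and 95 Mb (58.3%) and 80 and 85 Mb (57.3%), followed by chromosome 16 between 45 and 50 Mb (57.0%) and chromosome 2 between 145 and 150 Mb (54.3%). It was lowest on chromosome 19 between 0 and 5 Mb, at 3.15% (4 of 127 peaks), followed by chromosome 14 between 105 and 110 Mb (3.77%), chromosome 16 between 80 and 85 Mb (8.20%), chromosome 19 between 10 and 15 Mb (8.67%) and chromosome 17 between 75 and 80 Mb (10.2%). The median WT −log10 q was 6.29 in the first of the chromosome 13 windows, compared with 18.4 over the WT list. In that window 22 of the 71 Q592* peaks had no WT partner either. Over chromosome 13 the Q592*-only share was 14.3%, the highest of any autosome, against 9.37% over the Q592* list.

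Over all ranks, line-only cohesin peaks overlapped GATA2 of their own line more often than kept ones, with 32.0% against 20.3% in Q592* and 46.4% against 16.1% in WT. Cohesin sites at GATA2 were then compared with other cohesin sites in the same quartile of strength. Strength still varied within a quartile and was not matched further. The second WT quartile ran from a −log10 q of 7.66 to 18.4. Within the second quartile of WT strength, WT SMC3 peaks at GATA2 had no Q592* partner in 47.8% of cases (46.2 to 49.5%) and the others in 33.5% (32.4 to 34.7%). In the third quartile the shares were 7.70 and 2.55%, in the weakest quartile 77.5 and 75.01%, and in the strongest 0 and 0%. The Q592* list had the opposite order in its weaker quartiles. SMC3 peaks at Q592* GATA2 peaks lacked a WT partner in 24.8% of cases in the weakest quartile, against 34.8% of the others, and in 3.79% in the second, against 7.69%. In the second quartile, cohesin peaks at GATA2 thus lacked a partner more often than others when read from WT, and less often when read from Q592*, where the order over all ranks was the reverse. GATA2 was called at 57483 autosomal places in Q592* and 38063 in WT, so the 2 readings use GATA2 lists of different length.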

How the data were processed

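The authors deposited 1 peak list per line and target, with no value per library. Peak names mark each list as merged; the labels give 2 libraries to each group but 1 to Q592* RUNX1. The submitters' processing notes name hg19 as the build and list MACS2, Bowtie2 and Picard as tools. Their versions and options: not given in the sources used here. Fold enrichment, as deposited, is the ratio of ChIP pileup at the summit to local background, the deposited −log10 p and −log10 q values belong to that summit, and the deposited score, derived from the −log10 q, was not used. The other deposited columns are coordinates and the summit offset, printed here counted from 1. All of these are the authors' own values per peak. The lowest deposited −log10 q was 2.00 in Q592* and 2.01 in WT.

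Autosomal peaks of both SMC3 lists were joined by an overlap of at least 1 bp. Widths and summit shifts used regions with 1 peak of each list. Whole ChIP reads at summits and read totals were recovered from fold and −log10 p, to within 0.002 for over 99.9% of peaks (99.98% in either list), assuming a genome of 2700000000 bp and a fragment as long as the narrowest peak (151 bp in Q592*, 126 bp in WT). "At GATA2" means that the SMC3 peak of a line overlapped a GATA2 peak of the same line by at least 1 bp. Equal weighting of quartiles means the plain average of the shares in the 4 quartiles of −log10 q. The rule for named regions took the 5 strongest kept (by the lower −log10 q of both lists), Q592*-only and WT-only regions, the 5 widest kept regions, kept regions being limited here to those with 1 peak of each list, the 5 longest WT-only runs, the 3 highest and 3 lowest chromosomes and the 5 highest and 5 lowest windows of 5 Mb. Members, lists and rules were chosen with earlier results of these data known. Promoter and motif shares and gene lists had been planned and were not run, since the annotation and sequence of hg19 were not used here. Scripts used matplotlib 3.10.9, scipy 1.17.1, pandas 2.3.3 and numpy 2.4.6 under Python 3.11.15.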

Additional observations from a re-analysis of the deposited data

How the results depend on the processing

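No paired analysis was possible because the lists are pooled and carry no replicate numbers, and for the same reason none was left out. The planned promoter window, CTCF motif and per-library alternatives were not run. Rescaling WT, leaving out high local background and using the GATA2 calls of Q592* were chosen after seeing the data. Of 146 alternative values 95 stayed close to the reported ones (counts within 1.5 times, shares and medians within their interval), 51 moved and none changed sign. Some of the 95 could not change under their setting, such as the number of Q592* peaks at equal list lengths or under another joining rule. No value moved with every chromosome, without chromosome 13, with edge-to-edge spacing or with spacings over 1 Mb left out. Weak peaks, list length and the pooled design limit all counts; the cause of the other changes was not tested.

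With a −log10 q of at least 10 in both lists, the WT list held 27308 peaks, and 1864 Q592*-only and 4955 WT-only regions remained. Then 7.72% of Q592* and 18.1% of WT peaks had no partner, median widths were 378 bp in Q592* and 325 bp in WT, and spacings 54.5 and 47.1 kb. The summit distance was 14 bp, with 19 bp at GATA2 and 14 bp elsewhere, the width difference was -7 bp at GATA2 and 39 bp elsewhere, and 16.5% of kept WT neighbour pairs had a WT-only site between them. With lists of equal length there were 4953 Q592*-only regions and 4899 WT-only regions, nearly equal by construction, shares without a partner of 15.5 and 15.4%, a WT width of 305 bp and WT spacing of 39.7 kb, a distance of 29 bp and a width difference of -25 bp at GATA2, and 14.2% of WT pairs. A reciprocal overlap of 50% gave 4880 Q592*-only regions, shares without a partner of 15.3% (Q592*) and 34.5% (WT), a distance of 29 bp at GATA2, width differences of -12 bp at GATA2 and 34 bp elsewhere, and 29.0% of WT pairs. Summits within 200 bp gave shares of 10.4% and 30.7%, 31 bp at GATA2 and 26.4% of WT pairs. Without regions of high local background the shares were 10.7% and 33.5%, widths 323 and 263 bp, spacings 53.1 and 34.2 kb, distances 18 bp overall and 16 bp away from GATA2, the width difference away from GATA2 28 bp, and WT pairs 29.2%. WT rescaled by the ratio of background totals gave 28.8% of WT peaks without a partner and a WT spacing of 28.7 kb. With the narrowest width taken off, widths were 182 bp in Q592* and 143 bp in WT. With GATA2 calls of Q592*, judged on the Q592* SMC3 peak, the distance at GATA2 was 28 bp and the width difference -1 bp.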
